A study of Mus musculus with 904 samples.

Results

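Somatostatin interneurons that lack the long-projecting marker pair Nos1 and Chodl were described here from single sorted nuclei of mouse brain, labelled as cortex. They were chosen by their own RNA: 835 nuclei passed minima of 1000 genes and 10000 reads, and 73 of them had Sst at 100 CPM or more (CPM, reads per 1000000 reads of that nucleus), Gad1 at 10 CPM or more, Slc17a7 under 20 CPM and Nos1 plus Chodl under 100 CPM. The same rule with Nos1 plus Chodl at 100 CPM or more gave 27 nuclei, called Nos1/Chodl Sst nuclei below. All 5 genes of the rule are therefore given as a description, with no test.

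The series measured polyadenylated RNA in 904 single nuclei of C57Bl/6J mice, amplified with SMART-Seq v4. The mice had been injected as young adults with AAV of the PHP.eB capsid, which reaches the brain from the blood, and nuclei were sorted for reporter fluorescence 3 to 4 weeks later. Every construct carried the DLX2.0 enhancer, an element used to drive expression in forebrain GABAergic neurons, so the nuclei are those in which this enhancer gave a sortable signal and not a survey of the tissue. The sample titles name 16 constructs: DLX2.0-dTomato-H2B, DLX2.0-SYFP2-P2A-3XFLAG-H2B with and without SIRLOIN, DLX2.0-SYFP2-10aa-H2Bmod-BC, and 12 in which 1 of 6 RNA elements (BORG, 3xBORG, 3xsmOPT, U7snRNAOPT, 3xU7snRNAOPT or U7snRNAOPT-3'box) stood before or after the SYFP2-H2B reporter. All nuclei analysed here came from injected mice. The treatment label names 16 vectors that do not map onto the titles (67 combinations occurred), and the title was used here. Every nucleus is labelled as primary visual cortex, whereas the design text also speaks of motor cortex and striatum. No label names an animal, so the libraries compared may be technical repeats, and each p-value refers to these libraries alone. The p-values and SEs of edgeR, the test used for genes, come from a model fitted across genes. For genes with many reads they can understate the spread between libraries.

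Sst interneurons arise in the medial ganglionic eminence under transcription factors such as Lhx6, Sox6 and Satb1, and most of them inhibit the dendrites of pyramidal cells. They release GABA together with peptides stored in dense core vesicles, and they fall into subtypes that differ in layer, axon and peptide. The Nos1/Chodl cells are the rare long-projecting subtype, known for neuronal nitric oxide synthase, Npy and the substance P receptor Tacr1.

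The 73 Sst nuclei without Nos1 and Chodl had 84601 to 508013 reads (median 244593) and 2066 to 10402 genes (median 3136). The Nos1/Chodl Sst nuclei were of like depth, with a median of 288416 reads and 2835 genes. The former came from all 16 constructs, 1 to 8 per construct, and made up 12.99% of 562 kept neurons (exact 95% interval 10.32% to 16.05%, counting error only). The library names give 3 pools, which held unequal shares: 9.091% of neurons in pool S40317, 8.661% in S40325 and 20.1% in S40327. At the edges of the rule, the members with least Sst had 101.8, 110.9 and 121.6 CPM and the nuclei just outside had 93.32, 87.76 and 80.82 CPM. For Nos1 plus Chodl, the highest values inside the rule were 92.46, 53.94 and 47.3 CPM and the lowest outside were 135.7, 265.8 and 598.7 CPM. The Gad1 threshold took out the most nuclei, 66 of the 172 with Sst at 100 CPM or more. Of those 66, 34 met the rest of the rule, and 16 of the 34 had Gad2 at 10 CPM or more. Another 29 of the 66 had Nos1 plus Chodl at 100 CPM or more, against 27 Nos1/Chodl Sst nuclei kept. The comparison class is therefore only the part of such nuclei in which Gad1 was found.

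The label was checked against Lhx6 and Grin3a, a subunit of NMDA receptors, since Sst is part of the rule. Grin3a reached 10 CPM in 48 of 73 nuclei and Lhx6 in 29 of 73, and 55 had at least 1 of the 2. Of 6 markers of medially derived interneurons (Lhx6, Sox6, Satb1, Nxph1, Elfn1, Maf), 65 nuclei had at least 1 and 58 had at least 3. In Nos1/Chodl Sst nuclei these counts were 27 and 16 of 27, and in Pvalb nuclei (defined below) 86 and 64 of 91. In the other 462 kept neurons they were 256 and 91. These 6 markers therefore do not set the members apart from the other medial classes. Markers of other cells were found in the members as well. Of 9 excitatory markers 22 nuclei had at least 1 and 1 had at least 2 (sums of 0 to 1183 CPM), with Slc17a6, Neurod2 and Fezf2 at 0 reads in every member. Of 8 markers of caudally derived interneurons 31 had at least 1 and 9 at least 2 (0 to 6843 CPM), with Vip, Prox1, Sncg and Htr3a at 0. Of 12 glial and vessel markers 25 had at least 1 and 2 at least 2 (0 to 5553 CPM), with Mog, Pdgfra and Cx3cr1 at 0. Pvalb reached 100 CPM in 10 members, and Adarb2, Vip or Lamp5 was found in 9.

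Nuclei with little Sst fell into 2 sets by these markers. Sst ranged from 101.8 to 391.2 CPM in 17 members and from 662.8 to 24127 CPM in the other 56. Of the 17, 8 had no read of any of the 6 medial markers, and all 8 had reads of the striatal projection neuron genes Ppp1r1b or Rgs9, with sums of 709.1 to 4222 CPM. The other 9 had reads of medial markers and none of those 2 genes. Some of these 9 had more Pvalb than Sst: 129.4 CPM of Sst against 699.9 CPM of Pvalb, 160 against 296.1, 243.6 against 946.4 and 101.8 against 203.7. These nuclei also had reads of Tac1, and for them the label of an Sst interneuron is uncertain, but they were kept as members. In the rest of the 9 Pvalb was lower than Sst or had no read. All 56 nuclei with more Sst had reads of a medial marker, and 40 of the 56 had neither striatal gene. Meis2, a transcription factor of striatal and olfactory neurons, reached 10 CPM in 8 of the 17 and in 1 of the 56. Of the 8 nuclei without medial markers 7 came from pool S40325. For these 8 the data go against the label of an Sst interneuron. Unless stated, their counts enter each comparison below that includes their construct. The test against Nos1/Chodl Sst nuclei held only those of DLX2.0-SYFP2-10aa-H2Bmod-BC and DLX2.0-SYFP2-P2A-3XFLAG-H2B. The test of element position held only those with BORG or 3xU7snRNAOPT before the reporter. Without such nuclei the test against Nos1/Chodl Sst nuclei called 36 genes, 32 of the 40 called with all members among them. Of the 26 calls described below, Kcnq3 (8.14, adjusted p = 0.14), Fli1 (0.0773), Drd1 (0.0622), Gad2 (3.18, 0.0648) and Grm5 (3.47, 0.138) were lost (edgeR's quasi-likelihood test with Benjamini-Hochberg adjustment). Both Ppp1r1b and Rgs9 reached 10 CPM in 9 members, 7 of the 8 and 2 with more Sst. In the constructs tested against Nos1/Chodl Sst nuclei, leaving out these 9 removed the same nuclei as before. It was the same fit (36 calls) and is no second check. A list of 9 striatal markers had a median sum of 247.9 CPM in the members (0 to 11551), 606.1 CPM in Nos1/Chodl Sst nuclei (27.23 to 1431) and 209.1 CPM in Pvalb nuclei (0 to 6614), with none of the 9 at 0 throughout the members. Of the other 462 kept neurons 343 had at least 2 of these 9 markers.

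**Figure D1:**
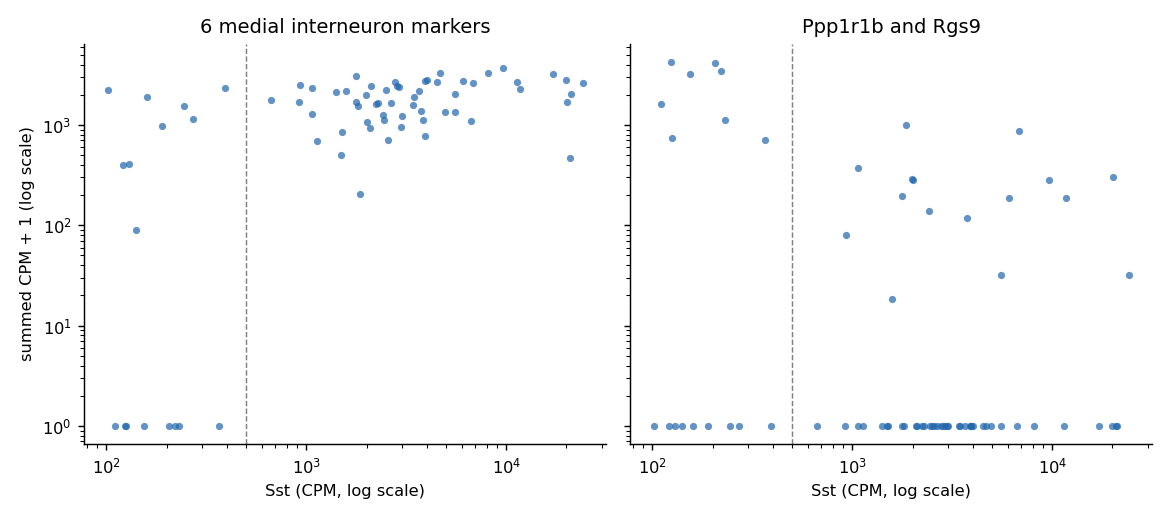
Summed CPM + 1 (log scale) of the 6 medial interneuron markers (left) and of the striatal genes Ppp1r1b and Rgs9 (right) against Sst (CPM, log scale) in each of the 73 Sst nuclei without Nos1 and Chodl; the dashed line marks 500 CPM of Sst. All 8 nuclei at 0 on the left lie below 500 CPM of Sst, and all 8 have reads of the striatal genes.

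Within the 73 nuclei, Sst itself spread widely. Its median was 2275 CPM and its highest value 24127 CPM, against a median of 19686 CPM and a range of 7755 to 52100 CPM in Nos1/Chodl Sst nuclei. Summed per construct over the 15 constructs with at least 3 members, Sst had a lowest value of 1026 CPM, a median of 3057 CPM and a highest of 18432 CPM. The highest construct was DLX2.0-SYFP2-H2B-3xBORG-BC, which was also highest for Npy, Calb1 and Gad2. By pool, summed Sst was 13731 CPM in S40317, 2055 CPM in S40325 and 3743 CPM in S40327, and the part of the pool in the spread between constructs was not tested. Gad1, which makes most of the GABA of these cells, averaged 761.9 CPM.

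**Figure D2:**
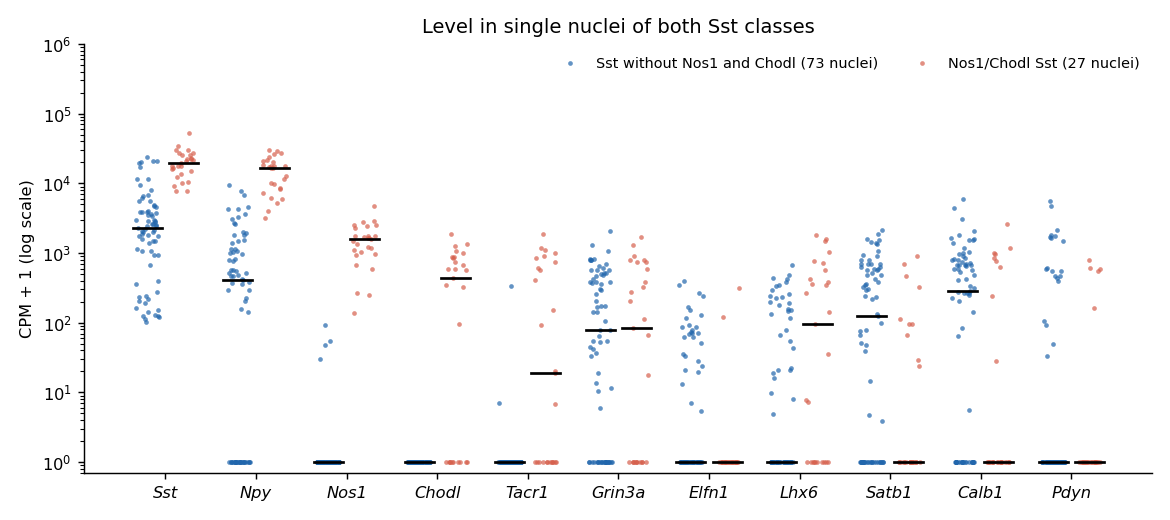
CPM + 1 (log scale) of 11 genes in each of the 73 Sst nuclei without Nos1 and Chodl (blue) and the 27 Nos1/Chodl Sst nuclei (red); points are nuclei, bars are medians, and nuclei at 1 have no read. Sst and Npy lie higher in the red points, whereas Elfn1, Satb1 and Calb1 have reads in a larger share of the blue points. The classes differ in size, so numbers of points above 1 are not shares.

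Markers of Sst subtypes covered most of the nuclei, but few were common. Of 32 genes listed as subtype markers, 57 nuclei had 2 or more at 10 CPM, 13 had 1 and 3 had none. Calb1, a calcium-binding protein, led with 47 of 73 nuclei and a mean of 623.2 CPM, and Pdyn, the precursor of dynorphin, followed with 20 of 73 and 346.6 CPM. Of the 8 nuclei without medial markers 6 had Calb1 and 2 had Pdyn, and of the 17 with Sst under 500 CPM 11 and 2. Cbln4, a secreted synapse organiser, was found in 13, the peptidase gene Mme in 12, Necab1 in 11, the transcription factor Etv1 in 9, the stress peptide gene Crh in 8, the heparanase gene Hpse in 6 and Calb2, calretinin, in 5. Tac1, the substance P precursor, was found in 12, of which 8 were among the 17 nuclei with Sst under 500 CPM (4 of them without medial markers) and 4 among the other 56. Necab1 was found in 5 of the 17 and 6 of the 56. Chrna2, a nicotinic receptor subunit that marks a deep Martinotti type, was in 0 of 73, which allows a share of up to 4.928% of nuclei with a read at this level. Fam114a1, Tacr3, Fibin and Esm1 were also in 0 members.

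These markers overlapped unevenly between nuclei, and the counts are a description since the members share constructs and pools. All 9 nuclei with Etv1 also had Calb1, and 11 of 13 nuclei with Cbln4 had Calb1. Hpse was found with Pdyn in 5 of 6 nuclei, and all 6 had Reln. Crh was found with Calb1 in 1 of its 8 nuclei, with Reln in 5, with Eya1 in 2 and with Mme in 1. Cort, the cortistatin peptide gene, was found in 24 nuclei, and 21 of these had Npy.

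**Figure D3:**
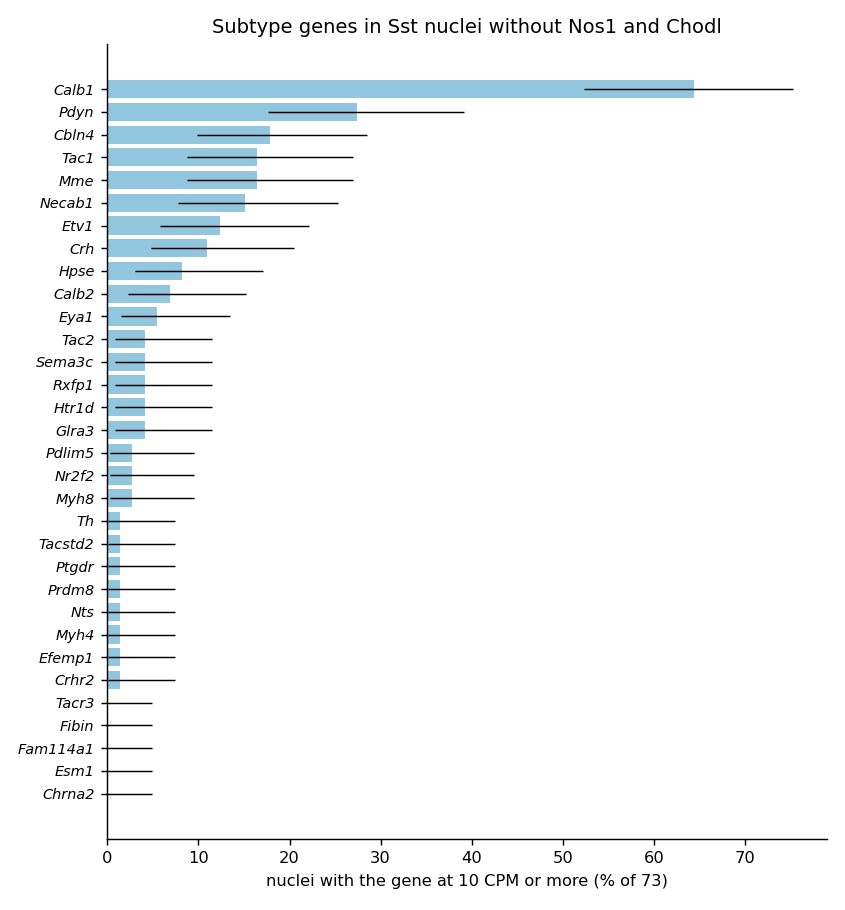
Share of the 73 Sst nuclei without Nos1 and Chodl with each of 32 subtype genes at 10 CPM or more (% of nuclei); whiskers are exact 95% binomial intervals, which cover counting error only. Calb1 leads with 47 nuclei, and 5 genes were in 0 nuclei.

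To ask which other genes separate the Sst nuclei without Nos1 and Chodl from the Nos1/Chodl class, counts were summed per construct and class in the 5 constructs with at least 3 nuclei of each. These libraries held 23 of the 73 and 21 of the 27 nuclei, with 897670 to 1731554 reads each. Values per library are given in CPM in the order 10aa-H2Bmod, H2B-3xBORG, P2A-3XFLAG, U7snRNAOPT-3'box before the reporter and U7snRNAOPT before the reporter. The Nos1/Chodl library of H2B-3xBORG stood apart before any test: 2 of its 3 nuclei, both of pool S40317, were the 2 lowest of the class in Nos1 plus Chodl (135.7 and 265.8 CPM), and they were the nuclei of the class with reads of Elfn1 (118.4 and 316.1 CPM). Calls that were lost without this construct are therefore given for the genes described below. Pools were not balanced between the classes within constructs. For U7snRNAOPT-3'box all 4 nuclei without Nos1 and Chodl came from S40327 and all 5 Nos1/Chodl nuclei from S40325. In 10aa-H2Bmod 4 of 5 of the former came from S40327 and 3 of 4 of the latter from S40325, whereas both classes of P2A-3XFLAG came from S40325 alone. In U7snRNAOPT-3'box class and pool cannot be told apart, and a fit with pool in the block is given beside the calls. A positive log2 fold change means higher in the nuclei without Nos1 and Chodl.

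Against Nos1/Chodl Sst nuclei, the peptide gene Npy, the vesicle genes Scg2 and Resp18 and the receptor gene Tacr1 were lower, and Lrp1b, Unc13c, Reln and Grm5 were higher. These calls were not equally stable: Npy was called in all 24 alternative settings, but Resp18 in 15 and Grm5 in 11 of 24. Of 10750 genes tested, 40 were called (0.372%; edgeR's quasi-likelihood test, Benjamini-Hochberg adjusted p under 0.05), 19 higher and 21 lower. The median log2 fold change over all genes was 0.31, and 371 genes had an unadjusted p under 0.05. In 16 of the 40 the 5 libraries of one class did not overlap the 5 of the other, as in 109 of all genes tested. Without H2B-3xBORG 47 genes were called, 24 higher and 23 lower, and 34 of the 40 were among them. A fit with construct and pool together as the block and at least 1 nucleus of each class (12 blocks, 42 against 22 nuclei) called 36 genes, 29 higher and 7 lower around a median of 1.34, and 20 of the 40 were among them. All 40 had the same direction there. That fit, called the pool block below, changes the minimum of nuclei as well as the block, so a call lost in it is not a measure of pool alone. With construct alone as the block and at least 1 nucleus per class, 43 genes were called, 34 higher and 9 lower around a median of 1.54. Without pool S40325 or S40327 fewer than 4 constructs kept enough nuclei, the minimum fell to 1 nucleus per class as well, and 11 and 7 genes were called in 6 constructs each.

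Npy, a peptide that dampens transmitter release, gave the smallest adjusted p. It measured 540.4, 3336, 1675, 524.7 and 722 CPM in the nuclei without Nos1 and Chodl and 15218, 8943, 14953, 22022 and 16299 CPM in the Nos1/Chodl nuclei. The highest library of the former, H2B-3xBORG, was below the lowest of the latter, which was the same construct, and the 2 classes did not overlap. The log2 fold change was -3.88 ± 0.14 (SE, adjusted p = 3.07e-161, edgeR's quasi-likelihood test with Benjamini-Hochberg adjustment, lower in 5 of 5 constructs). Without H2B-3xBORG it was -4.45, and with the pool block -3.46. The SE of 0.14 is smaller than the spread between constructs in the values above. The size of this p-value is therefore not a measure of how alike the constructs were. Npy was nevertheless found in 46 of 73 nuclei without Nos1 and Chodl, at a mean of 1104 CPM, against 27 of 27 at 15391 CPM. Summed by pool, Npy was 1938 against 3651 CPM in S40317, 893.6 against 18510 CPM in S40325 and 1081 against 13235 CPM in S40327, lower in each.

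Sst and Npy, both at lower levels in these nuclei, lie on chromosomes 16 and 6, and the 250 bases before their starts are shown because a cAMP response element (TGACGTCA, palindromic, so the same on both strands) is the best known control element of the Sst promoter. The sequences are from RefSeq (GRCm38.p6), 5′ to 3′ on the gene's strand, with the element in capitals.
Sst, chr16:23890845-23891094, minus strand: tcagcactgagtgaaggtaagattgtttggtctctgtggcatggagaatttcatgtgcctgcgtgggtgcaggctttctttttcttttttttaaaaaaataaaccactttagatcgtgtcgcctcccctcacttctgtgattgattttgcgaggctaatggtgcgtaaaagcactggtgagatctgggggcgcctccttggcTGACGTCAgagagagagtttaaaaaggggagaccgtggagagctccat
Npy, chr6:49822460-49822709, plus strand: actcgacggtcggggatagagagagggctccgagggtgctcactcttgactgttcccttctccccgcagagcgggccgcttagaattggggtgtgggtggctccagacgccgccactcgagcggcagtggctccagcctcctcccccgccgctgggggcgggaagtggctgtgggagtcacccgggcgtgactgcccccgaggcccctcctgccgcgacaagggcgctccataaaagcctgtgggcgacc
The Sst window held the element once, starting 48 bases before the start, and the Npy window held no exact match. The same 8 letters were found in 508 of 32851 windows of this length (1.55%). A match describes letters and not a site in use.

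Among 16 genes of peptide processing and dense core vesicles, Scg2 and Resp18 were lower and none was higher (5 of 16 above 0, median log2 fold change -0.58 against 0.31 for all genes). Scg2, secretogranin II of the vesicle core, measured 59.1, 255, 208.2, 80.21 and 63.06 CPM against 2672, 1491, 3033, 4421 and 1628 CPM. Its classes did not overlap (-4.46 ± 0.42 SE, adjusted p = 1.89e-23, edgeR's quasi-likelihood test with Benjamini-Hochberg adjustment). Resp18, an endocrine vesicle protein, measured 72.47, 379.5, 297.6, 150.4 and 297.9 CPM against 989.5, 846.6, 1231, 1132 and 1508 CPM. It was lower in 5 of 5 constructs without overlap (-2.40 ± 0.54 SE, adjusted p = 0.00395), but with the pool block it was not called (-1.45, adjusted p = 0.575, edgeR), nor with at least 1 nucleus per class (-1.14, adjusted p = 0.618). Without pool S40325 and with at least 1 nucleus per class its direction turned (0.40, adjusted p = 0.958, edgeR). Scg2 was called with the pool block (-3.40, adjusted p = 0.0243, edgeR) and with at least 1 nucleus per class, and not at that minimum without S40325 or without S40327. Of 10 neuropeptides tested Npy was the only call, and 6 lay above 0.

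Hhip, Fxyd6 and Tacr1 had no read in any of the 5 libraries without Nos1 and Chodl. Hhip, an inhibitor of Hedgehog ligands (chr8:79965851-80058006, mm10), measured 775.2, 371.7, 1350, 1052 and 663 CPM in the Nos1/Chodl libraries and had no read in the others. With the empty side set to 3 counts over the group this is at least 1841-fold lower (adjusted p = 9.4e-26, edgeR's quasi-likelihood test with Benjamini-Hochberg adjustment). Over all nuclei Hhip was found in 0 of 73 against 19 of 27. Fxyd6, a regulator of the sodium pump (chr9:45370185-45396159, mm10), measured 1799, 398.3, 2254, 757.1 and 1737 CPM against none, at least 2889-fold lower (adjusted p = 5.95e-47, edgeR). Outside these 5 constructs Fxyd6 was not absent, since 8 of all 73 nuclei had it, at a mean of 41.33 CPM against 1299 CPM. Tacr1, the substance P receptor, measured 283.8, 416.7, 396.1, 421 and 214.6 CPM against none, at least 736-fold lower (adjusted p = 2.39e-08, edgeR), and was found in 1 of 73 against 14 of 27 nuclei. These bounds hold for the 5 libraries and not for the class. With at least 1 nucleus per class Hhip had 0 reads against 6621, Fxyd6 319 against 10097 and Tacr1 65 against 2769. All 3 genes, and Scg2 and Resp18, were called without H2B-3xBORG as well, and all 3 with the pool block.

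Tacr1 was the 1 call among 12 neuropeptide receptors tested (5 above 0, median -0.95). Npy2r, a receptor for Npy, did not pass (adjusted p = 0.318, edgeR's quasi-likelihood test with Benjamini-Hochberg adjustment) although it was found in 0 of 73 against 8 of 27 nuclei. Among 14 monoamine and acetylcholine receptors the dopamine receptor gene Drd1 was lower, with 5 of 14 above 0. Drd1 was found in 5 of 73 against 14 of 27 nuclei. Chrm2, a muscarinic receptor, had -5.35 ± 1.87 (SE) and an adjusted p of 0.485 (edgeR). The other large falls were Nxph2, a neurexin ligand (-9.61 ± 1.55 SE), Ghr, the growth hormone receptor (-9.50 ± 2.28 SE), and 4 genes with no read in the 5 libraries without Nos1 and Chodl. These were the sialyltransferase gene St6galnac2 (at least 753.6-fold lower), the heparan sulfate enzyme gene Ndst4 (at least 403.4-fold), the protease inhibitor gene Spint2 (at least 392.8-fold) and the transcription factor gene Fli1 (at least 347.5-fold). Ghr was lower in 4 of 5 constructs. Without H2B-3xBORG Ghr (-8.93 ± 2.91 SE, adjusted p = 0.266, edgeR) and Spint2 (at least 315.2-fold lower, adjusted p = 0.0963) were not called. With at least 1 nucleus per class and construct alone as the block Drd1 (-7.06), Nxph2 (-7.92), Ghr (-8.68), Ndst4 (-8.35), Spint2 (-8.34) and Fli1 were already not called (adjusted p from 0.0723 to 0.34, edgeR). The pool block did not call these 6 either (adjusted p from 0.166 to 0.371, edgeR), and St6galnac2 was called in both. The bounds above hold for the 5 libraries alone. With at least 1 nucleus per class, reads were 48 against 1302 for Ndst4 and 69 against 1679 for Spint2. They were 1 against 1044 for Fli1 and 0 against 2646 for St6galnac2.

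On the higher side, Lrp1b, a receptor of the low density lipoprotein family (chr2:40595246-42653624, mm10), measured 341.3, 7.865, 826.5, 270.7 and 366.5 CPM and had no read in the Nos1/Chodl libraries. This is at least 763.7-fold higher (adjusted p = 3.16e-08, edgeR's quasi-likelihood test with Benjamini-Hochberg adjustment), and Lrp1b was found in 32 of 73 against 0 of 27 nuclei. Much of this came from nuclei without medial markers. When they were left out, 984 of the 2288 reads remained. Lrp1b was then at least 377.7-fold higher and still called (adjusted p = 0.0359, edgeR). Unc13c, a factor that primes synaptic vesicles (chr9:73479422-73968966, mm10), measured 1499, 146.2, 683.8, 807.6 and 107.8 CPM against 0.8274, 128.7, 0, 0 and 0 CPM. Only the H2B-3xBORG library of the Nos1/Chodl class reached the level of the other class (9.85 ± 1.33 SE, adjusted p = 1.28e-10, higher in 5 of 5 constructs). Reln, the extracellular glycoprotein reelin (chr5:21884454-22344702, mm10), measured 610.7, 624.6, 105.2, 130.3 and 287.9 CPM against 0, 521.8, 0, 0 and 0 CPM. It was higher in 5 of 5 constructs (9.09 ± 1.59 SE, adjusted p = 5.74e-06, edgeR), again with H2B-3xBORG as the overlapping library.

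The same library held the Nos1/Chodl reads of Ano3, Etl4, Cdh7 and Kcnq3. Ano3, a member of the anoctamin family, measured 647.3, 313.9, 788.3, 436.7 and 595 CPM against 0, 373.8, 0, 0 and 0 CPM (10.35 ± 1.41 SE, adjusted p = 2.39e-10, edgeR). It was higher in 4 of 5 constructs. Etl4 was 9.91 ± 1.58 (SE) and the cadherin gene Cdh7 9.61 ± 1.98 (SE), both higher in 5 of 5. Collagen Col19a1 was 9.53 ± 2.17 (SE), the protocadherin gene Pcdh11x 7.81 ± 1.56 (SE) and the microtubule gene Dcx 6.69 ± 1.74 (SE). Dcx was called in only 9 of 24 alternative settings. With at least 1 nucleus per class it was 3.95 (adjusted p = 0.372, edgeR), and with the pool block 4.01 (adjusted p = 0.422). Without H2B-3xBORG, Reln, Ano3, Etl4 and Cdh7 had no read in the Nos1/Chodl libraries and were at least 537.7-fold, 1137-fold, 730.4-fold and 651.2-fold higher, and they and Unc13c were called. Kcnq3, a subunit of the M-current channel, was called with all libraries (8.43 ± 2.25 SE, adjusted p = 0.0458, edgeR) and not without that construct (adjusted p = 0.253), although no other Nos1/Chodl library had a read and the difference was then at least 225-fold. Lrp1b, Unc13c, Reln, Ano3, Etl4, Cdh7, Col19a1, Pcdh11x and Kcnq3 were called with the pool block.

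**Figure D4:**
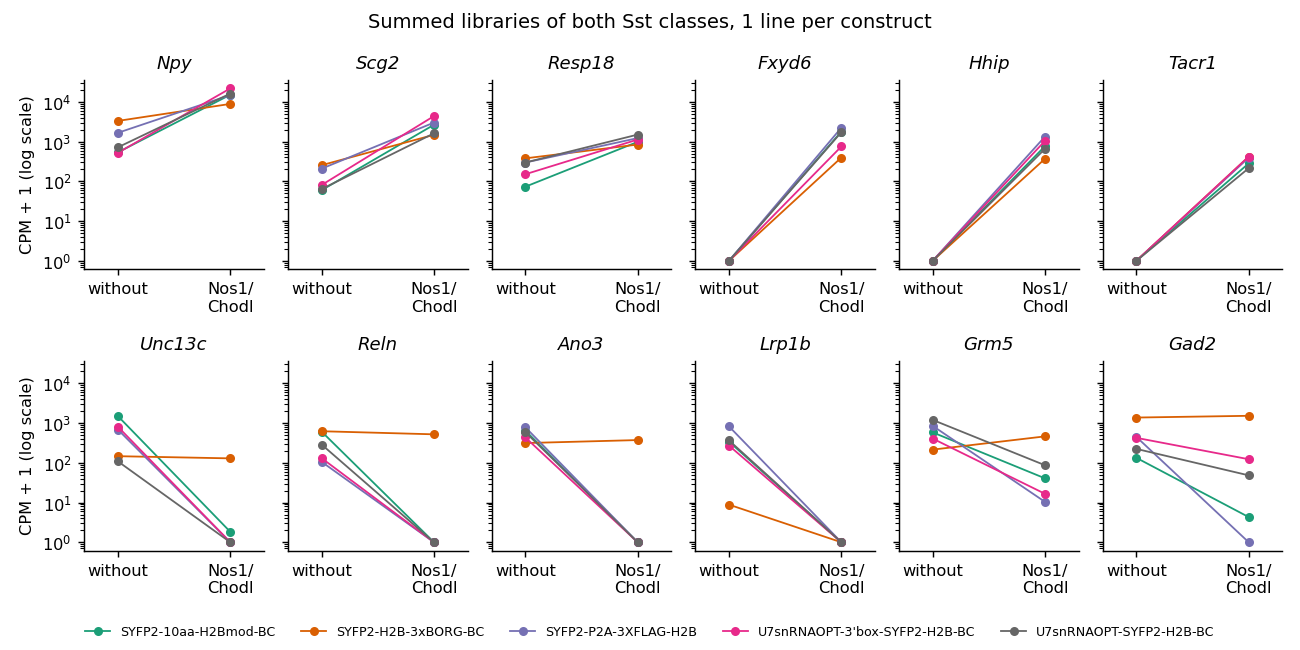
CPM + 1 (log scale) of 12 called genes in the summed library of each Sst class, with 1 line per construct (5 constructs) and the classes on the horizontal axis; points at 1 have no read. The upper 6 genes are lower in the nuclei without Nos1 and Chodl in all 5 constructs, and in the lower row the orange line, DLX2.0-SYFP2-H2B-3xBORG-BC, stays high on both sides for Unc13c, Reln, Ano3, Grm5 and Gad2.

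Transmitter genes gave few calls. Among 6 genes of GABA synthesis, release and uptake, Gad2, the synaptic isoform of glutamate decarboxylase, was higher. It measured 133, 1382, 450.4, 425.5 and 223.9 CPM against 3.309, 1529, 0, 122.4 and 47.41 CPM (3.15 ± 0.83 SE, adjusted p = 0.0413, edgeR's quasi-likelihood test with Benjamini-Hochberg adjustment). The classes overlapped through H2B-3xBORG, and Gad2 was 4.24 ± 1.59 (SE) and not called without it (adjusted p = 0.585), and 6.35 and not called with the pool block (adjusted p = 0.0826). Gad2 reached 10 CPM in 55 of 73 against 9 of 27 nuclei. Grm5, a postsynaptic metabotropic glutamate receptor, was the 1 call of 10 in its list, with 584.7, 214.3, 853.1, 407.7 and 1205 CPM against 39.71, 463.6, 9.39, 15.59 and 85.99 CPM. It was higher in 4 of 5 constructs, with H2B-3xBORG the other way (3.91 ± 0.89 SE, adjusted p = 0.00438, edgeR). Without that construct it was 4.69 and called, and with the pool block 5.43 and not called (adjusted p = 0.0615, edgeR). Grm5 was found in 69 of 73 against 9 of 27 nuclei.

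Other lists gave no or few calls, and their shares of genes above 0 are to be read against 57.7% of all genes tested. No gene was called among 12 GABA-A receptor subunits (8 above 0, median 1.43), 16 ionotropic glutamate receptors (14 above 0, 0.91), 13 genes of nitric oxide and cGMP signalling (7 above 0, 0.16), and 26 sodium, calcium and HCN channels (16 above 0, 0.27). Gabrd, the extrasynaptic delta subunit, was found in 28 of 73 against 0 of 27 nuclei and had an adjusted p of 0.157 (edgeR's quasi-likelihood test with Benjamini-Hochberg adjustment). Among 36 potassium channel genes Kcnq3 was the 1 call (24 above 0, median 1.59). Among 28 synaptic adhesion genes Cdh7 was higher and Nxph2 lower (16 above 0, median 0.35). Setting genes with 0 reads on one side to their bound left each of these medians, and that of all genes, as given.

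None of 18 interneuron transcription factors tested was called (12 above 0, median 1.38), and none of 11 subtype genes tested (8 above 0, median 1.62). Lhx6 had -2.80 ± 1.0 (SE, adjusted p = 0.545, edgeR's quasi-likelihood test with Benjamini-Hochberg adjustment), lower in 5 of 5 constructs. Calb1 had 2.02 ± 0.57 (SE, adjusted p = 0.096, edgeR). Calb1 was found in 47 of 73 against 9 of 27 nuclei. Grin3a differed by 0.13 ± 0.72 (SE), and an error of that size allows differences in either direction. Thinning each nucleus to 84601 reads left Calb1 in 65.75% against 33.33% of nuclei and Gad2 in 78.08% against 33.33%. Of the glial and vessel markers only 2 of 12 could be tested, and Mbp, the myelin basic protein gene, was lower (-6.23 ± 1.65 SE, adjusted p = 0.0414, edgeR), though not with at least 1 nucleus per class (-2.42, adjusted p = 0.558) or the pool block (-2.43, adjusted p = 0.555). The summed glial list had a median of 0 CPM (0 to 5553) in the members and 74.88 CPM (0 to 4525) in Nos1/Chodl Sst nuclei. Mbp was found in 13 of 73 against 12 of 27 nuclei, and the part of glial RNA in the other calls was not tested.

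The remaining 14 calls are named to complete the 40. Serpini1, Mef2c, Arpp21, Slc8a1, Sparcl1, Neto2 and Malat1 were higher, and Nnat, Rgs17, Col25a1, Pcp4, Ptprt, Saraf and Ldha were lower. Malat1, a nuclear noncoding RNA, was called at 0.16 ± 0.02 (SE, edgeR's quasi-likelihood test with Benjamini-Hochberg adjustment) although only 3 of 5 constructs were higher and the libraries overlapped, so this difference is within the spread between libraries. Of the 40 called genes 26 overlap another annotated gene. The sources used here do not say that counting used strand, so reads of such neighbours cannot be told apart.

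Pvalb nuclei, the other large class from the medial ganglionic eminence, gave a second comparison. They were 91 nuclei with Pvalb at 100 CPM or more, Sst under 100 CPM, Gad1 at 10 CPM or more and Slc17a7 under 20 CPM, so Pvalb and Sst are description here too. The 10 members with both Pvalb and Sst at 100 CPM or more counted as Sst nuclei, also where Pvalb was the higher. In 11 constructs with at least 3 nuclei of each class (54 against 81 nuclei), 88 of 13314 genes were called (0.661%; edgeR's quasi-likelihood test, Benjamini-Hochberg), 44 higher and 44 lower. The median log2 fold change was -0.34, and 849 genes had an unadjusted p under 0.05. Libraries of the 2 classes did not overlap in 5 of the 88, and these 5 were the only such genes of all those tested. Without pool S40317 there were 44 calls and without S40327 there were 18. With construct and pool as the block and at least 1 nucleus per class 71 genes were called, 46 higher and 25 lower around a median of -0.03.

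Synpr, Grin3a, Unc13c and the peptide genes Npy and Pdyn rose against Pvalb nuclei. Synpr, synaptoporin of synaptic vesicles, measured 62.29 CPM in the lowest library, 774.3 in the median and 1399 in the highest, against 0, 0 and 95.25 CPM. Its log2 fold change was 10.69 ± 0.74 (SE, adjusted p = 2.51e-43, edgeR's quasi-likelihood test with Benjamini-Hochberg adjustment, higher in 11 of 11 constructs). Grin3a measured 75.83, 232.3 and 802.1 CPM against 0, 0 and 9.025 CPM and was the 1 gene of the higher side whose libraries did not overlap (10.73 ± 1.07 SE, adjusted p = 2.39e-20, edgeR). It was found in 48 of 73 nuclei against 2 of 91 Pvalb nuclei. Unc13c measured 82.49, 399 and 807.6 CPM against 0, 0 and 157.4 CPM, higher in 11 of 11 constructs (10.80 ± 0.97 SE, edgeR). Pdyn was found in 20 of 73 against 2 of 91 nuclei (9.72 ± 0.99 SE), and Trpc6, a cation channel gene, in 28 against 1 (9.02 ± 1.89 SE).

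By list, 3 of 20 subtype genes rose against Pvalb nuclei (Calb1, Cbln4, Pdyn) and Tac1 fell. Calb1 was 2.75 ± 0.51 (SE), and Cbln4, with no read in the Pvalb libraries, was at least 360.2-fold higher (6 of 11 constructs with reads). Of 11 neuropeptides Npy and Pdyn rose and Tac1 fell (7 above 0, median 0.49 against -0.34 for all genes). Npy measured 0 CPM in the lowest library, 621.1 in the median and 3336 in the highest, against 17.46, 124.7 and 926.5 CPM (2.54 ± 0.39 SE, adjusted p = 1.29e-07, edgeR's quasi-likelihood test with Benjamini-Hochberg adjustment). Npy therefore lay below the Nos1/Chodl class and above the Pvalb class in tests that share the Sst nuclei without Nos1 and Chodl. Of 27 sodium, calcium and HCN channel genes Cacna1e, Cacna2d3 and Scn3b rose and none fell. Of 20 interneuron transcription factors Npas1 rose (15 of 73 against 0 of 91 nuclei, at least 432.4-fold). Rgs9, a striatal marker, was 6.12 ± 1.07 (SE), and it was found in 8 of the 17 members with Sst under 500 CPM and in 13 of the other 56.

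The potassium channel genes Kcnc1 and Kcnh7 and the Pvalb markers Syt2 and Cox6a2 fell against Pvalb nuclei. Kcnc1, the Kv3.1 channel that speeds repolarisation, measured 142 CPM in the lowest library, 334.8 in the median and 856.7 in the highest, against 401.7, 1016 and 1349 CPM. It was lower in 11 of 11 constructs although the ranges overlapped (-1.44 ± 0.31 SE, adjusted p = 0.00095, edgeR's quasi-likelihood test with Benjamini-Hochberg adjustment). Kcnc1 and Kcnh7 (-2.69 ± 0.65 SE) were the 2 calls of 41 potassium channel genes, whose median of -0.38 lay near the -0.34 of all genes (14 above 0). The Pvalb markers Syt2, a fast calcium sensor (-7.47 ± 1.68 SE), and Cox6a2, a respiratory chain subunit (-8.07 ± 1.57 SE), fell, and the libraries of Cox6a2 did not overlap. Among called genes at 20 CPM or more with reads in 25% of Pvalb nuclei, the largest falls by fold were Adamts15 (-8.51 ± 2.21 SE), Fam19a2 (-8.47 ± 2.10 SE), Myo5b (-8.33 ± 2.14 SE), Mybpc1 (-8.25 ± 2.14 SE) and Il1rapl2 (-8.19 ± 1.45 SE).

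**Figure D5:**
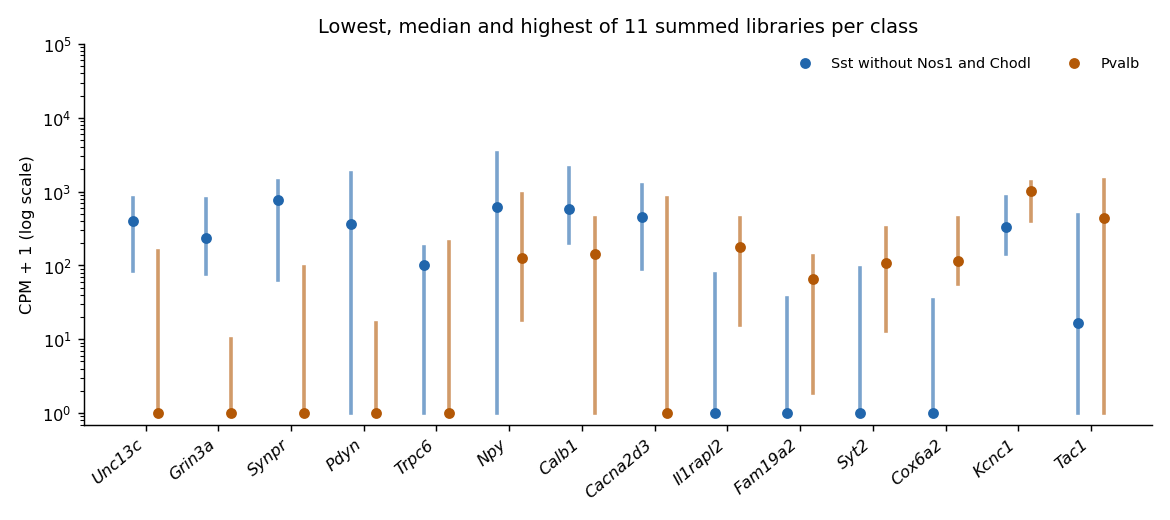
CPM + 1 (log scale) of 14 called genes in Sst nuclei without Nos1 and Chodl (blue) and Pvalb nuclei (orange), summed per construct; points are medians of 11 libraries and bars run from the lowest to the highest library. For Grin3a and Cox6a2 the bars of the 2 classes do not overlap.

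Only 7 genes were called in both comparisons, which share the Sst nuclei without Nos1 and Chodl: Unc13c, Reln, Ano3, Serpini1, Pcdh11x, Npy and Sparcl1. Serpini1, the neuronal protease inhibitor neuroserpin, was 4.37 ± 0.45 (SE) against Nos1/Chodl and 1.60 ± 0.21 (SE) against Pvalb nuclei. Sparcl1, an extracellular matrix protein, was 4.11 ± 0.86 (SE) against the former and -1.31 ± 0.24 (SE) against the latter. Among the 7, Npy and Sparcl1 had opposite signs in the 2 comparisons.

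Against the other 462 kept neurons, a mixture that includes the Pvalb nuclei, the scale of the values limits what can be read. In 15 constructs (72 against 437 nuclei) 3314 of 15982 genes were called (20.7%; edgeR's quasi-likelihood test, Benjamini-Hochberg), 40 higher and 3274 lower, around a median log2 fold change of -2.20. With equal numbers of nuclei drawn per construct, 104 genes were called, 41 higher and 63 lower, with a median of -0.12. Among called genes at 20 CPM or more with reads in 25% of nuclei of the higher class, Grin3a led the higher side (5.79 ± 1.01 SE, adjusted p = 0.00038, edgeR), found in 48 of 73 against 30 of 462 nuclei. Synpr (3.13 ± 0.39 SE), the laminin gene Lama4 (3.42 ± 1.05 SE), Moxd1 (3.07 ± 1.03 SE) and the phosphatase gene Ptpru (2.76 ± 1.0 SE) followed. With equal numbers of nuclei Grin3a (7.76), Synpr (3.67), Lama4 (7.24) and Moxd1 (6.95) were called and Ptpru was not (3.96, adjusted p = 0.139, edgeR). Ptpru was also not called without the 8 nuclei that had no medial marker (2.81, adjusted p = 0.0585). Of 23 interneuron transcription factors Maf, Npas1, Npas3 and Sox6 rose and Etv1, Nkx2-1, Prox1, Sp9 and St18 fell (10 above 0, median -0.16). The list does not hold medial factors alone, since Prox1 is also among the caudal markers named above. The falls are therefore not a loss of medial factors as a set. The 5 that fell are 21.7% of the list, against 20.5% of all genes tested. With equal numbers of nuclei Maf was still called and the other 8 were not. Of 32 adhesion genes the cadherins Cdh7, Cdh9 and Cdh13 rose and Cntn5, Cntnap5b, Il1rapl2 and Slitrk1 fell (9 above 0, median -0.91), of which Cdh13 was called with equal numbers of nuclei. On the lower side of the same filter were Inka2, Slc1a2, Nfib, Sv2b and Galnt18, between -9.79 and -8.14, and each was found in 1 to 4 of the 73 nuclei. All 5 were called with equal numbers of nuclei, between -8.44 and -6.24.

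The study's design also compared RNA elements placed after or before the reporter, and this was asked within the Sst nuclei without Nos1 and Chodl. In 5 elements with at least 2 such nuclei on both sides (22 after, 25 before), 4 of 10868 genes were called (0.0368%; edgeR's quasi-likelihood test, Benjamini-Hochberg) and 199 had an unadjusted p under 0.05. Cers2, a ceramide synthase, measured 344.8, 137.2, 419.8, 234.9 and 49.48 CPM after, in the order 3xU7snRNAOPT, 3xsmOPT, BORG, U7snRNAOPT and U7snRNAOPT-3'box, and had no read before. It was higher in 5 of 5 elements without overlap, at least 426.6-fold (adjusted p = 4.02e-05, edgeR). Over all genes tested 30 lay above and 32 below without overlap, and Cers2 was the 1 called gene among them. Penk, proenkephalin, measured 548.9, 1112, 118.9, 0 and 0 CPM after and had no read before, so 3 of 5 elements carried its call (at least 659.5-fold, adjusted p = 2.62e-06, edgeR). Without 3xsmOPT, the element with the highest value, Penk was not called (at least 183.7-fold, adjusted p = 1, edgeR). The 3xsmOPT library after the reporter was also the highest of the 15 constructs for the vessel marker Vtn (787.2 CPM), the glial genes Mbp (359.3 CPM) and Slc1a3 (224.8 CPM) and the excitatory marker Foxp2 (311.5 CPM). Without nuclei over 7000 genes Penk (adjusted p = 0.0136) and Cers2 (0.00238) were still called (edgeR), as they were without the members with both Ppp1r1b and Rgs9 (0.00375 and 0.000489). The mitochondrial mt-Cytb, called at -4.64 ± 0.87 (SE), measured 0, 548, 64.4, 0 and 0 CPM after and 26.12, 226.2, 4003, 22.85 and 0 CPM before. It was lower after in 3 of 5 elements, higher in 3xsmOPT and without reads on either side in U7snRNAOPT-3'box, and the libraries overlapped. The nuclei of BORG shared no pool, with 4 of S40317 and 1 of S40325 before and all 4 of S40327 after, so element position and pool cannot be told apart in that pair. Without BORG mt-Cytb was -3.98 and not called (adjusted p = 1, edgeR), nor was it called without U7snRNAOPT (-3.86, adjusted p = 0.103) or without nuclei over 7000 genes (-6.03, adjusted p = 1). With element and pool together as the block and at least 1 nucleus per side (6 blocks, 20 against 20 nuclei) mt-Cytb was called at -5.30 (adjusted p = 7.99e-05, edgeR) although its summed reads were higher after (7655 against 1541). Cers2 (at least 226.9-fold, adjusted p = 0.766) and Penk (at least 324.5-fold, adjusted p = 1) were not called there. Malat1 was higher in 3 of 5 elements, within the spread between libraries. DESeq2 called 242 genes, of which 1 was among these 4.

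The share of Sst nuclei without Nos1 and Chodl among kept neurons was 16.13% ± 3.849 (SD, n = 6 elements) after and 14.52% ± 6.257 (SD, n = 6) before. It was higher after in 4 of 6 elements, and the difference of 1.615 percentage points was within the spread (exact paired permutation test, two-sided, p = 0.4375, smallest possible 0.031). Without pool S40317 the difference was 6.063 points (exact p = 0.031, n = 6, higher in 6 of 6), and without S40327 it was -0.4631 (exact p = 0.875, 5 elements). Over all kept nuclei it was 0.09668 points, higher after in 2 of 6 elements (exact p = 0.9375, n = 6).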

How the data were processed

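The authors deposited counts of reads per gene for single nuclei (SMART-Seq v4, Nextera XT, per the labels' protocols). The submitters' processing notes name the aligner STAR 2.7.2a and the build mm10. How reads were counted is not given in the sources used here. Of 2501 columns the 904 that match a sample were used and 1597 were not. Of 32285 gene IDs 32158 matched a symbol in GENCODE M21 (GRCm38). The libraries used 584 index pairs, 245 of them in more than 1 library, and no 2 of the 904 libraries held the same values.

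Nuclei were kept at 1000 genes and 10000 reads (30023 to 719419 reads), doublets were not called, and classes were set by CPM. Counts were summed per construct and class, since nuclei are not replicates, and libraries needed 3 nuclei per class (2 for element position). Where fewer than 4 constructs met this against Nos1/Chodl Sst nuclei, the minimum fell to 2 (sums per treatment label) or 1 (without S40325, without S40327). Low sums were removed (filterByExpr), library sizes were scaled by TMM, and the quasi-likelihood test of edgeR 4.0.16 (R 4.3.3) was run with construct or element as a block and Benjamini-Hochberg adjustment at 0.05 over all genes tested. The SE is the log2 fold change divided by the square root of F, and a side with 0 reads was set to 3 counts over the group. Such a bound holds for the summed reads of the libraries tested and not for every nucleus of the class. Limma 3.58.1 (voom), DESeq2 1.42.0 and the settings in the closing section were alternatives. Shares and exact tests used scipy 1.17.1 in Python 3.11.15 (numpy 2.4.6, pandas 2.3.3), and figures matplotlib 3.10.9.

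Genes named are the 10 largest called fold changes in each direction against Nos1/Chodl Sst nuclei and the 5 largest against Pvalb and other neurons (20 CPM and reads in 25% of nuclei of the higher class), the 2 smallest p of each gene list, marker and subtype genes, and the called genes for position. Genes outside that rule were chosen after their values were seen. Some genes that the rule names, and some markers, are not reported here. The members, gene lists and tests were chosen with earlier results of these data known. On simulated data with the dispersion fitted against Nos1/Chodl Sst nuclei (10904 genes), edgeR recovered 0 of 100 genes changed by a log2 fold change of 2 and 4 of 100 changed by 4. Against Pvalb nuclei (13194 genes) it recovered 1 and 29 of 100, so most changes of these sizes would be missed.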

Additional observations from a re-analysis of the deposited data

Results flagged for a closer look

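In 45 sets of 5 libraries or 6 elements, of the 26 called genes named against Nos1/Chodl Sst nuclei and of the share of members, 14 had 1 library far from the other 4 (Dixon's criterion, which chance meets in about 1 in 20 sets). In 8 of the 14 the other 4 libraries were all at 0, where any read meets the criterion and that rate does not apply. The Nos1/Chodl library of DLX2.0-SYFP2-H2B-3xBORG-BC stood out in 8 of the 14. It held 373.8 CPM of Ano3, 300.2 CPM of Etl4, 89.87 CPM of Cdh7, 521.8 CPM of Reln and 372.7 CPM of Kcnq3, where the other 4 libraries held no read. Unc13c was at 128.7 CPM there against 0 to 0.8274 CPM, Gad2 at 1529 CPM against 0 to 122.4 CPM and Grm5 at 463.6 CPM against 9.39 to 85.99 CPM. The nuclei without Nos1 and Chodl of the same construct had 1382 CPM of Gad2 against 133 to 450.4 CPM.

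The Nos1/Chodl library of DLX2.0-SYFP2-P2A-3XFLAG-H2B held 105 CPM of Col19a1 and the others none. That of DLX2.0-SYFP2-10aa-H2Bmod-BC held 241.6 CPM of Dcx against 0 to 12.25 CPM. Among the nuclei without Nos1 and Chodl, those of DLX2.0-SYFP2-P2A-3XFLAG-H2B had 79.98 CPM of Nxph2 and 87.91 CPM of Ghr where the others had none. Those of the construct with U7snRNAOPT-3'box before the reporter had 1012 CPM of Pcdh11x against 329 to 476.2 CPM.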

How the results depend on the processing

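Against Nos1/Chodl Sst nuclei, where 40 genes were called, DESeq2 called 687 (38 of the 40 among them), limma-voom 103, sums per treatment label at 2 or more nuclei 21 and no construct block 6. At 1 or more nuclei per class 43 were called, 11 without S40325 and 7 without S40327. Leaving out 1 construct at a time gave 22 to 47. The other settings that changed the 40 by less than 1.5 times gave 29 to 47 calls. Against Pvalb nuclei (88 calls) DESeq2 called 719, limma-voom 171, at least 5 nuclei per class 27, the fit without S40317 44 and without S40327 18. Against other neurons (3314 calls) sums per treatment label gave 1401, at least 5 nuclei per class 62, Sst at 500 CPM or more 2184, without S40317 1736, without S40325 926, without S40327 23, equal numbers of nuclei 104 and construct and pool as the block 5187. For element position (4 calls) DESeq2 gave 242, limma-voom 9, no element block 1 and the 7000-gene limit 2, and leaving out 1 element gave 4 to 5. The share of members after minus before was 6.063 points without S40317, -0.4631 without S40327, 0.09668 over all kept nuclei, 0.9448 with either Gad gene and 1.005 with Sst at 500 CPM or more, against 1.615. The causes were not tested.

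Of the 26 called genes named against Nos1/Chodl Sst nuclei, Npy and Fxyd6 were called in all 24 alternatives, Ano3 and Hhip in 23, and Unc13c, Reln and Scg2 in 22. Not all alternatives are distinct fits, so these tallies count some fits more than once. Leaving out H2B-3xBORG, leaving out S40317 and setting Nos1 plus Chodl under 20 or at least 500 CPM held the same nuclei. Leaving out nuclei with striatal genes or those without medial markers was also the same fit. The least often called were Gad2 (4 of 24), Kcnq3 (5 of 24), Dcx (9 of 24), Fli1 (9 of 22), Grm5 (11 of 24), Spint2 (11 of 23), Ghr (12 of 24), Ndst4 and Drd1 (12 of 23) and Mbp (13 of 24). Over 617 combinations of gene and alternative 431 stayed called in the same direction, 185 lost the call and 1 turned, Resp18 at 0.40 without S40325 at 1 or more nuclei. Leaving out 10aa-H2Bmod ended 12 of the 26 calls, U7snRNAOPT 13, U7snRNAOPT-3'box 11, P2A-3XFLAG 7 and H2B-3xBORG 4. Equal numbers of nuclei, pool in the block, at least 1 nucleus per class, either Gad gene in the rule, the 7000-gene limit, leaving out 1 element and leaving out nuclei with striatal genes or without medial markers were chosen after seeing the data. At least 5 nuclei per class left 1 construct against Nos1/Chodl Sst nuclei, and element position without S40327 had too few nuclei, so neither was run. By replicate number no paired analysis was possible because the numbers in the titles name single nuclei. Constructs and elements served as pairs instead.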
